A study of Mus musculus with 20 samples.

Results

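Expression of 10 genes of the antioxidant response was followed in the livers of 20 mice. The genes were chosen by symbol, independently of any threshold on the measurements, and comprise Nfe2l2 and Keap1, which encode the transcription factor Nrf2 and its inhibitor, the Nrf2 targets Nqo1, Gclc, Gclm, Srxn1 and Txnrd1, and the antioxidant enzymes Cat, Sod1 and Gpx1. These are 10 of the 25444 loci in the count table. All 10 were among the 13704 loci that passed the filter on low counts.

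The study profiled liver RNA from the inbred strains C57BL/6N (B6) and C3H/HeN (C3), with 5 females and 5 males of each strain. Mice of all 4 groups were 20 weeks old, came from one supplier and lived in single cages. No treatment is named for any group, and the mice of all groups were moved to another diet in the weeks before collection. The rooms differed by sex, and room and sex therefore cannot be told apart. RNA was taken from the left lateral lobe, and reads of both strains were aligned to the reference genome mm9, which derives from a B6 substrain, so strain and the ease of aligning a strain's reads cannot be told apart either. In this bulk tissue, fewer cells of a type and less RNA per cell cannot be told apart.

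Nrf2 is held at a low level by Keap1, which hands it over for degradation. Oxidants and electrophiles modify Keap1, after which Nrf2 accumulates, pairs with small Maf proteins and binds antioxidant response elements in its target genes. The targets make glutathione, reduce quinones and keep thioredoxin and the peroxiredoxins in their reduced state, and in the liver they serve defence against reactive metabolites of drugs and food.

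Libraries held 27370921 to 46835745 counts and were sequenced in 3 pools of 8, 5 and 7 libraries. Each group had 1 or 2 livers in every pool. Depth followed the pool, and 60.1% of all genes tested had an adjusted p under 0.05 for the pool, so pool was a term of the model. The hepatocyte markers summed to between 69050 and 163200 CPM (normalised read counts scaled to library size by TMM) in each liver, and Alb, Apoa1, Ttr and Fgb were all detected, as the defining markers of the labelled tissue. Their sum was higher in C3, at 126800 to 163200 CPM against 87570 to 122800 in B6 among females. Among males it was 100300 to 129400 against 69050 to 95470. The part of this shift in the differences below was not tested. CPM is used below to compare one gene between livers, and TPM, which also divides by gene length, to compare different genes.

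**Figure D1:**
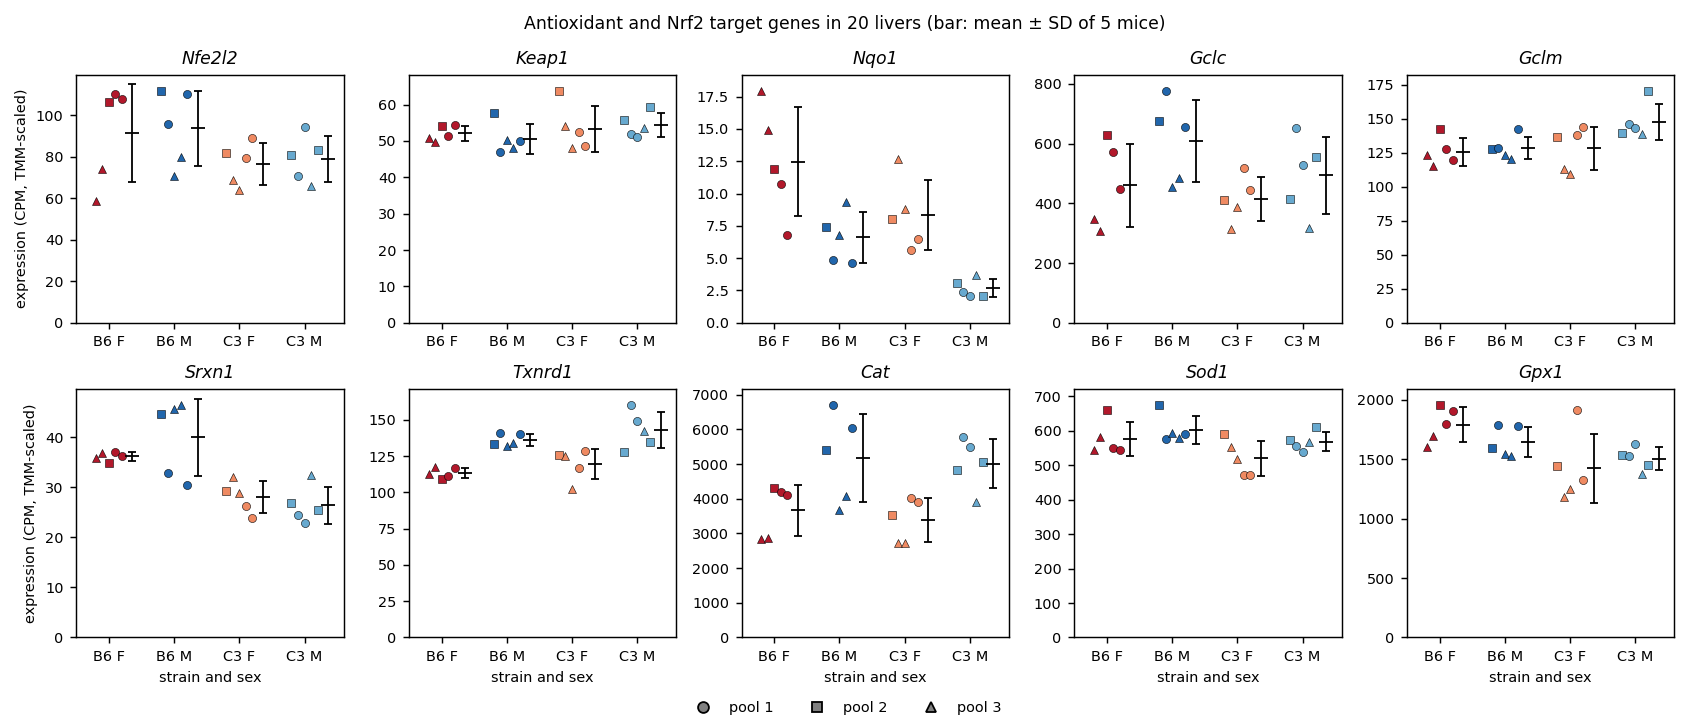
Expression (CPM, TMM-scaled, linear axis from 0) of the 10 genes in each of the 20 livers, by strain and sex (F, female; M, male). Each point is 1 mouse, its shape gives the sequencing pool, and the black bar is the mean ± SD of 5 mice. Nqo1 ran from 2.07 to 17.9 CPM, and Cat was lower in females than in males within each pool.

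On the TPM scale, the antioxidant enzymes stood far above the regulators and the other targets. The mean level over 20 livers was 3479 TPM for Cat, 3167 for Gpx1 and 1819 for Sod1. Gclc followed with 298.0 TPM, Gclm with 132.5, Txnrd1 with 65.9 and Nfe2l2 with 46.3, and then Keap1 with 24.4, Srxn1 with 24.3 and Nqo1 with 10.3. Most neighbours in this order kept it in all 20 livers, but Txnrd1 lay above Nfe2l2 in 18 of 20, and Cat above Gpx1 and Keap1 above Srxn1 in only 11 of 20. The level of Gpx1 exceeded that of Cat in 8 of 10 female livers and in 1 of 10 male livers. The level of Srxn1 exceeded that of Keap1 in 9 of 10 B6 livers and in 0 of 10 C3 livers. Nqo1 was the most variable member, with a highest TPM 10.1 times the lowest and a coefficient of variation of CPM within groups that averaged 30.7%. Txnrd1 was the least variable within groups, at 5.93%. Pool was not removed from these values, and each group spans the pools, so they hold differences between pools as well as between mice. Txnrd1 was the only member without an adjusted p under 0.05 for pool (edgeR, 0.186), and for Nqo1 pool 3 stood at 1.75 times pool 1.

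The sex and strain comparisons ask which of these genes differ between females and males of a strain, and between the strains within a sex. Genes were called changed at an adjusted p under 0.001 together with a log2 fold change beyond 0.5 in either direction. Of the 10 members, 1 was called between B6 females and males, where 6.34% of all genes tested were called. Between C3 females and males it was 1 of 10, against 6.90% of all genes. Between the strains it was 0 of 10 in females, against 9.40%, and 2 of 10 in males, against 9.64%. These 4 calls were Nqo1 in both sex comparisons and Nqo1 and Srxn1 between C3 and B6 males. With so few members, a count of 0 to 2 is near the background.

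At an adjusted p under 0.05 and any fold change, 4 members differed between B6 females and males (34.6% of all genes did), 3 between C3 females and males (40.0%), 4 between the strains in females (32.9%) and 4 in males (34.5%). The median log2 fold change of the 10 members was -0.06 and -0.08 for females against males in B6 and C3, and -0.13 and -0.14 for C3 against B6 in females and males. Over all genes the medians were 0.00, 0.01, 0.02 and 0.01. In each of these comparisons, 1 member had groups that did not overlap in CPM, against 10.9%, 13.1%, 12.8% and 15.1% of all genes. The comparisons share groups, so they do not count as independent observations of a member.

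**Figure D2:**
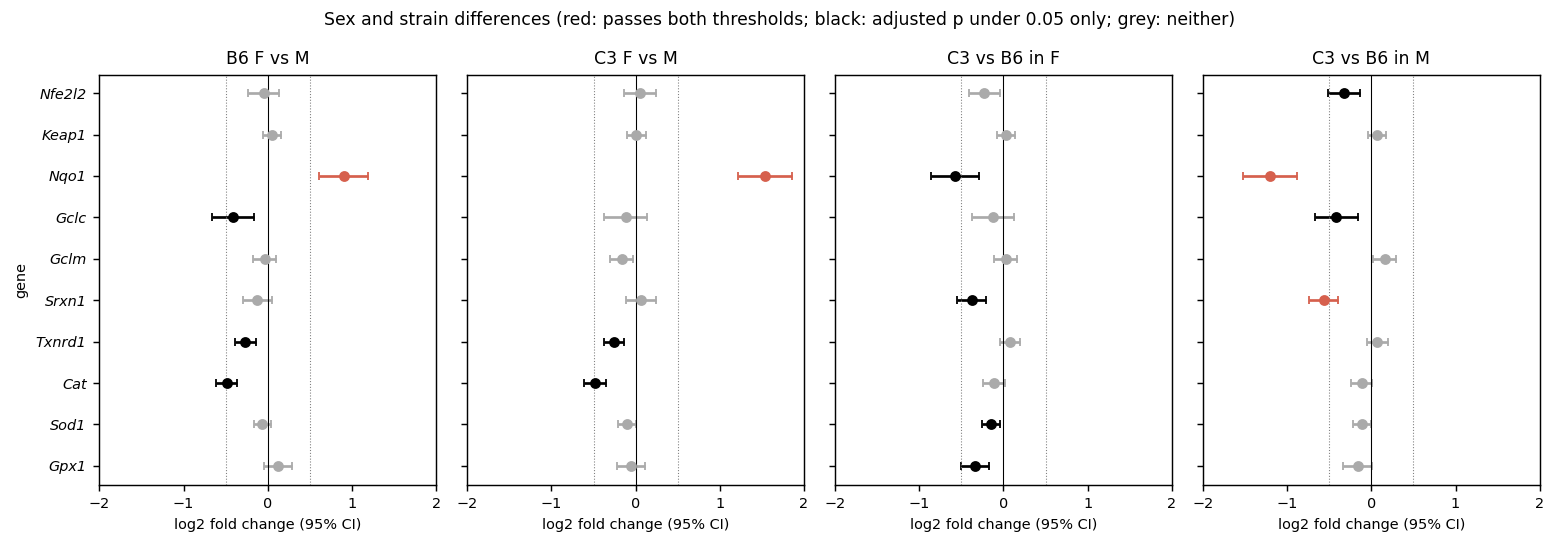
Log2 fold change (points) of each of the 10 genes with its 95% confidence interval (bars) in the 4 comparisons, from edgeR with pool in the model. F vs M is female against male, and C3 vs B6 is C3 against B6, so positive values are higher in the first-named group. Dotted lines mark the limit of 0.5. Nqo1 is the only member past both thresholds in the sex comparisons, and in males Nqo1 and Srxn1 are lower in C3.

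Nfe2l2, the gene of Nrf2 itself, did not pass both thresholds in any comparison. It ranged from 58.8 to 110.4 CPM in B6 females, from 70.7 to 111.8 in B6 males, from 64.0 to 88.8 in C3 females and from 65.7 to 94.4 in C3 males. All 4 groups overlapped. The sex difference was -0.05 in B6 (95% confidence interval -0.24 to 0.14) and 0.05 in C3 (-0.14 to 0.24) on the log2 scale, and its sign turned under other scalings. C3 males lay 0.33 below B6 males on the log2 scale (log2 fold change -0.33, SE 0.09, edgeR adjusted p = 0.00865), and in females the difference was -0.23 (SE 0.09, adjusted p = 0.0568).

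Keap1, the adaptor that presents Nrf2 to its ubiquitin ligase, was the flattest of the 10 genes, with values between 47.0 and 63.8 CPM over 20 livers. Its log2 fold changes were 0.05 and 0.01 for sex and 0.03 and 0.07 for strain. The 95% intervals of these 4 differences lay between -0.10 and 0.18.

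Nqo1, which encodes a quinone reductase widely used as a readout of Nrf2 activity, was the member with the largest differences. It lies on chromosome 8 at chr8:109912125-109927105 (mm9, minus strand), with the microRNA gene Mir5098 on the other strand. Near its start, from 1000 bases before to 50 bases after, the core of the antioxidant response element was looked for on both strands as TGACNNNGC and TGAGNNNGC. One match stood 436 bases before the start. It is shown because Nqo1 is the target on which most of the differences turn. The match is in capitals, read 5′ to 3′ on the gene's strand in the mm9 reference (chr8:109927508-109927566, minus strand).

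Nqo1: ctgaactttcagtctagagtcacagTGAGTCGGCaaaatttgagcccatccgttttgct

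In such windows, 6 of the 10 members held a match to either form (Gclm, Nfe2l2, Nqo1, Sod1, Srxn1 and Txnrd1) and 4 did not, while 63.1% of 13682 windows of the genes tested did. In the 300-base promoters of RefSeq (GRCm38.p6), the 9 members listed had 11 promoters, of which 5 held one, against 27.8% of 32851 promoters. A match of letters is no measure of binding. The C3 sequence was not used here.

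Nqo1 in B6 females was 17.9, 14.9, 11.9, 10.7 and 6.81 CPM in replicates 1 to 5. In B6 males it was 7.41, 4.87, 6.79, 9.35 and 4.63 CPM. The lowest B6 female lay within the range of the males, and the other 4 lay above it. In C3 females the gene was at 8.03, 12.7, 8.82, 5.65 and 6.46 CPM, and in C3 males at 3.06, 2.42, 2.10, 3.73 and 2.07 CPM. All C3 females were above all C3 males, and all C3 males were below all livers of the other 3 groups.

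Females had 1.87-fold more Nqo1 than males in B6 (log2 fold change 0.90, SE 0.14, adjusted p = 7.4e-05) and 2.90-fold more in C3 (1.53, SE 0.15, adjusted p = 4.7e-07). Within pools 1, 2 and 3, the log2 differences were 0.84, 0.68 and 1.03 in B6 and 1.40, 1.65 and 1.49 in C3. C3 males had 2.31-fold less Nqo1 than B6 males (log2 fold change -1.21, SE 0.15, adjusted p = 5.2e-06), with -1.06, -1.54 and -1.08 within the pools. In females the same comparison gave -0.57 (SE 0.14, adjusted p = 0.00298), which missed the threshold on p. It passed when B6 female replicate 5 was left out (-0.66, adjusted p = 6.9e-04). The sex difference was larger in C3 by 0.63 on the log2 scale (SE 0.20), but this interaction had an adjusted p of 0.108, and its 95% interval, not adjusted for the number of genes, ran from 0.21 to 1.06.

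The sex call in B6 and the strain call in males were lost without the pool term, where the log2 fold changes were 0.91 (adjusted p = 0.0223) and -1.30 (adjusted p = 0.00161). The B6 sex call was also lost with only the 2 groups compared in the fit (0.91, adjusted p = 0.00114). Pool 3 read 1.75-fold higher than pool 1 for this gene (adjusted p for pool 2.8e-05). Nqo1 had 58 to 913 counts per library, the fewest of the members.

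Markers of other liver cells also differed between the groups, and not all of them in the direction of Nqo1. The summed CPM of 5 Kupffer cell markers (Clec4f, Vsig4, Cd5l, Adgre1 and Marco) ran from 323.3 to 435.7 in B6 females, from 205.3 to 323.7 in B6 males, from 227.2 to 344.8 in C3 females and from 153.6 to 230.7 in C3 males. Of these 5 markers, 1 was called higher in females in each strain, where 3.23% of all genes were in B6 and 4.11% in C3. In females 3 and in males 2 were called lower in C3, where 4.77% and 5.55% of all genes were. The sum of 5 stellate cell markers ran from 449.8 to 563.6 in B6 females, from 365.9 to 430.8 in B6 males, from 375.6 to 415.8 in C3 females and from 313.7 to 366.6 in C3 males. None of those 5 was called. The sum of 5 markers of sinusoidal endothelium was also higher in females, at 332.9 to 414.4 against 276.9 to 325.8 in B6 and at 317.6 to 400.0 against 288.3 to 350.2 in C3. None of the 5 was called between the sexes. For C3 against B6, their median log2 fold change was -0.03 in females and 0.001 in males. Lyve1, 1 of them, was called lower in C3 females than in B6 females (-0.98, edgeR adjusted p = 5.5e-04). The sum of 5 lymphocyte markers, all at low levels, was 0.425 to 0.821 CPM in C3 males and at least 1.05 in each liver of the other groups, with ranges of 1.93 to 3.74 in B6 females, 1.05 to 3.70 in B6 males and 1.55 to 2.19 in C3 females. None of these 5 was called, and all 5 had an adjusted p under 0.05 both as higher in C3 females than in C3 males and as lower in C3 males than in B6 males. Of all genes, 40.0% and 34.5% had an adjusted p under 0.05 in these comparisons, in either direction. The sum of 5 neutrophil markers was 2.10 to 4.81 CPM in C3 females against 0.928 to 1.56 in C3 males, and 1.37 to 2.41 in B6 females against 1.04 to 1.43 in B6 males. Of the 3 tested, 1 was called higher in females in each strain, where 3.23% of all genes were in B6 and 4.11% in C3. It was a different marker in each strain. Ly6g was called in B6 (log2 fold change 1.01) but not in C3 (0.48, edgeR adjusted p = 0.061). S100a9 was called in C3 (1.89) but not in B6 (-0.07, adjusted p = 0.88). For C3 against B6, the median log2 fold change of the 3 was 0.63 in females and -0.36 in males, where Nqo1 gave -0.57 and -1.21. The sum of 5 cholangiocyte markers was 22.4 to 40.4 CPM in B6 females against 33.0 to 43.65 in B6 males. In C3 it was 27.1 to 39.7 in females against 21.6 to 29.4 in males. Sox9, 1 of these, was called lower in females of both strains (log2 fold change -1.42 and -0.84). No marker of these lists was at 0 in all livers, and their part in the Nqo1 differences was not tested.

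**Figure D3:**
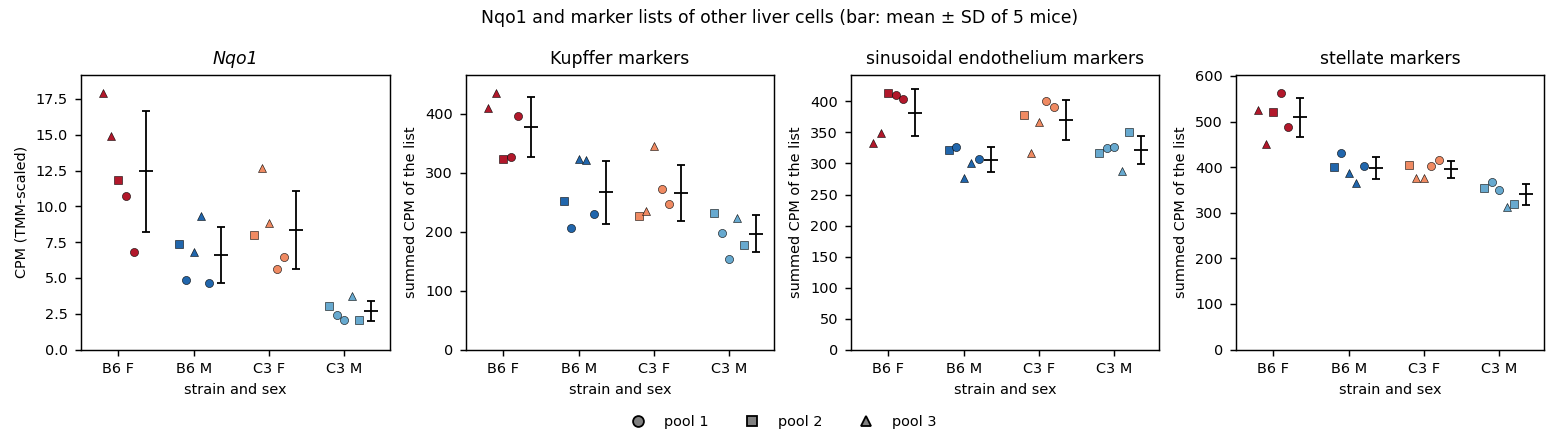
Nqo1 (CPM) and the summed CPM of 5 markers each of Kupffer cells, sinusoidal endothelium and stellate cells in the 20 livers, by strain and sex. Points are mice, shapes are sequencing pools, and bars are the mean ± SD of 5 mice. Nqo1 and the Kupffer and stellate sums have their lowest mean in C3 males and their highest in B6 females.

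The genes whose pattern over the 20 livers, with pool removed, came closest to that of Nqo1 were Mpc1 and Anxa6. Mpc1, a subunit of the mitochondrial pyruvate carrier, differed from it by a root mean square of 0.27 and Anxa6, an annexin, by 0.30 in z-scored log2 CPM, where the median over all genes was 1.40. Both were picked as the smallest differences, so lying below that median follows from the choice. Z-scores leave out the size of a change: mean Anxa6 was 150.0 CPM in B6 females and 96.63 in C3 males, and mean Nqo1 12.45 and 2.675.

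Srxn1, which encodes sulfiredoxin and rescues overoxidised peroxiredoxins, differed by strain. It lies at chr2:151931260-151937112 (mm9, plus strand). Its window held 4 matches to the motif, the most of the members, which is why the 2 upstream matches nearest to its start are printed. One of them, 158 bases before the start (chr2:151931077-151931135, plus strand), is on the opposite strand and so appears as its reverse complement, and the other is 45 bases before the start (chr2:151931190-151931248, plus strand). Capitals mark the matches, both of the form TGAGNNNGC, which was added after seeing the data.

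Srxn1, 158 bases upstream: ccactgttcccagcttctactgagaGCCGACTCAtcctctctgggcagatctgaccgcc
Srxn1, 45 bases upstream: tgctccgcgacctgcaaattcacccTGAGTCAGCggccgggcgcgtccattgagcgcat

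Srxn1 was 35.9, 36.8, 34.9, 37.0 and 36.4 CPM in the B6 females and 44.6, 32.8, 45.8, 46.4 and 30.6 CPM in the B6 males. In C3 it was 29.4, 32.0, 28.9, 26.2 and 23.9 CPM in the females and 26.9, 24.6, 22.9, 32.5 and 25.4 CPM in the males. C3 females were all below B6 females, while 1 of the C3 males reached above the lowest B6 male. In males the gene was 1.48-fold lower in C3 (log2 fold change -0.57, SE 0.08, adjusted p = 3.3e-05), and it was called, a call that was lost without the pool term (-0.60, adjusted p = 0.00114). Within the pools the differences were -0.42, -0.77 and -0.51. In females the difference was -0.38 (SE 0.08, adjusted p = 0.00151), short of both thresholds, and the interaction was 0.19 (SE 0.12, adjusted p = 0.462). Between the sexes the log2 fold change was -0.12 in B6 (adjusted p = 0.256) and 0.06 in C3 (adjusted p = 0.561).

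The B6 males fell into 3 livers at 44.6 CPM and above and 2 livers at 32.8 and below, and these last 2 were the pool 1 livers. Pericentral hepatocyte markers were also lower in C3: 5 of 7 were called lower in each sex, where 4.77% of all genes were in females and 5.55% in males. The sum of these markers was 9926 to 13740 CPM in B6 females against 6022 to 8277 in C3 females, and 9050 to 13270 in B6 males against 7458 to 11080 in C3 males. Their part in the Srxn1 and Nqo1 differences was not tested. The patterns closest to Srxn1 over 20 livers were those of Pde9a, a cyclic GMP phosphodiesterase, and Parp9, at root mean squares of 0.38 and 0.38 against a median of 1.40. Pde9a and Parp9 too were picked as the smallest differences, so lying below the median follows from the choice.

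Txnrd1, the cytosolic thioredoxin reductase, was lower in females by a small amount. Its values were 109.1 to 117.3 CPM in B6 females and 132.1 to 141.2 in B6 males, which did not overlap, and 102.3 to 128.3 in C3 females and 128.2 to 160.0 in C3 males, which overlapped at their ends. The log2 fold change was -0.27 in B6 (SE 0.06, adjusted p = 0.00187) and -0.26 in C3 (SE 0.06, adjusted p = 0.00252), under both limits of a call. The strains differed by 0.08 in females and 0.07 in males, with 95% intervals of -0.04 to 0.20 and -0.05 to 0.19. Txnrd1 (chr10:82296696-82360469, plus strand) overlaps Eid3 on the same strand, and read pairs on several genes were not counted.

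Gclc and Gclm encode the catalytic and the modifier subunit of glutamate-cysteine ligase, which makes the first intermediate of glutathione. The 2 subunits did not share a pattern. Gclc ranged from 306.6 to 629.1 CPM in B6 females, 453.0 to 776.5 in B6 males, 314.0 to 517.7 in C3 females and 318.8 to 650.6 in C3 males, and all groups overlapped. Its log2 fold change was -0.41 for females against males in B6 (SE 0.12, adjusted p = 0.0115) and -0.41 for C3 against B6 in males (SE 0.12, adjusted p = 0.0118). In the other 2 comparisons it was -0.12 and -0.12, with adjusted p-values of 0.445 and 0.470. Gclm lay between 109.5 and 170.7 CPM over the 20 livers. Its 4 log2 fold changes ran from -0.17 to 0.16, and the smallest adjusted p was 0.0508, for C3 females against males.

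Catalase (Cat), the peroxisomal enzyme that splits hydrogen peroxide, was lower in females of both strains and fell just short of the fold limit. Cat was 2850, 2857, 4319, 4197 and 4094 CPM in B6 females and 5419, 6693, 3682, 4077 and 6033 CPM in B6 males. In C3 it was 3537, 2723, 2715, 4031 and 3917 CPM in the females and 4831, 5782, 5480, 3916 and 5053 CPM in the males. The sexes overlapped over all livers of a strain but did not overlap within any pool of either strain. Males had 1.40-fold more in B6 (female against male log2 fold change -0.49, SE 0.06, adjusted p = 7.5e-06) and 1.40-fold more in C3 (-0.49, SE 0.06, adjusted p = 1.0e-05). The differences within pools 1, 2 and 3 were -0.62, -0.33 and -0.44 in B6 and -0.50, -0.48 and -0.53 in C3.

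The limit of 0.5 was crossed in B6 without female replicate 3 (-0.55, adjusted p = 2.3e-06) or male replicate 3 (-0.52, adjusted p = 6.1e-06), and in C3 without male replicate 1 (-0.50, adjusted p = 1.9e-05). C3 and B6 differed by -0.11 in both sexes, with 95% intervals of -0.24 to 0.02 in females and -0.24 to 0.01 in males. The interaction of sex and strain was 0.00 (95% interval -0.18 to 0.18). Of the members, Cat had the smallest adjusted p for pool (3.3e-08), and pool 3 stood at 0.664 of pool 1.

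The summed CPM of an erythroid list was higher in males, at 145.8 to 187.4 against 20.2 to 33.0 in B6 and at 196.2 to 226.4 against 16.1 to 28.7 in C3. Nearly all of it was Alas2, the first enzyme of heme synthesis in red cells, with means of 24.6 CPM in B6 females and 164.8 in B6 males. Of the list's 12 loci, 8, including globin loci, were at 0 in all livers, and Slc4a1 stayed under 1 CPM on average in each group. The part of this list in the Cat and Txnrd1 differences was not tested.

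Sod1, cytosolic superoxide dismutase, ranged only from 471.2 to 674.1 CPM. C3 females lay below B6 females by 0.15 on the log2 scale (log2 fold change -0.15, SE 0.05, adjusted p = 0.0244, and up to 0.0804 with single libraries left out), and the other 3 comparisons gave -0.07 to -0.11 with adjusted p-values of 0.307, 0.0997 and 0.0897. One other place in the genome resembles 94.7% of the Sod1 transcript at up to 97.2% identity. Read pairs that map to several places were not counted, so its counts are uncertain to that extent.

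Gpx1, the abundant selenium-dependent glutathione peroxidase, was lower in C3 females (1182 to 1918 CPM) than in B6 females (1602 to 1954), with overlap through 1 C3 liver. The log2 fold change was -0.34 (SE 0.08, adjusted p = 0.00266). In males it was -0.16 (SE 0.08, adjusted p = 0.127), and the sexes differed by 0.12 in B6 and -0.05 in C3 with adjusted p-values of 0.241 and 0.611. Without C3 female replicate 4, the liver at 1918 CPM, the log2 fold change of C3 females against C3 males was -0.16 (adjusted p = 0.0467). That of C3 against B6 in females ran from -0.44 to -0.29 with single libraries left out (adjusted p from 1.8e-05 to 0.0116).

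No member passed the thresholds in the interaction of sex and strain, where 0.401% of all genes did, and no member had an adjusted p under 0.05 (2.96% of all genes). At an unadjusted p under 0.05 there was 1, Nqo1, and DESeq2 also gave no member past the thresholds.

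Beyond the 10 members, 105 genes of the wider antioxidant system were followed in 7 lists, of which 100 passed the filter. Between females and males, 19 of 100 were called in B6 (5 higher and 14 lower in females, where 3.23% and 3.12% of all genes were) and 12 of 100 in C3 (8 higher and 4 lower, against 4.11% and 2.79%). Between the strains, 9 were called in females (5 higher and 4 lower in C3, against 4.63% and 4.77%) and 15 in males (5 higher and 10 lower, against 4.09% and 5.55%). No gene of the lists was called in the interaction by edgeR (0.401% of all genes were), 3 were by DESeq2, and 13 had an edgeR adjusted p under 0.05 (2.96% of all genes).

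The 12 tested genes of Nrf2 regulation, such as partners and competitors of Nrf2, gave no call in any comparison. Of all genes, 6.34% to 9.64% were called in the sex and strain comparisons. The peroxisome list had the most calls in B6. There, 8 of 19 differed between the sexes, against 6.34% of all genes, and 7 of them were lower in females. The median log2 fold change of the list was -0.23. Hao1, a liver glycolate oxidase, was at 150.6 ± 22.8 CPM (SD, n = 5) in B6 females against 319.8 ± 68.7 in B6 males (log2 fold change -1.08, edgeR adjusted p = 7.0e-08), and it was lower in C3 females as well, with -1.09 (adjusted p = 7.0e-08). Hao2, a related hydroxyacid oxidase, went the other way, with 14.9 ± 13.6 CPM in B6 females and 110.1 ± 35.5 in C3 females against 0.264 and 0.269 in the males (adjusted p = 1.6e-05 and 9.5e-08). In C3, 2 of 19 peroxisome genes were called between the sexes, against 6.90% of all genes, and the list's median was -0.06. In the interaction of sex and strain, 0 of 19 were called, against 0.401% of all genes. At an adjusted p under 0.05 it was 6 of 19, all with a higher female-to-male ratio in C3 than in B6, against 2.96%. The list's median interaction was 0.27 on the log2 scale, against 0.01 over all genes. Between the strains, 2 of 19 were called in females, 1 higher and 1 lower in C3, against 9.40% of all genes. In males it was 4 of 19, all lower in C3, against 9.64%.

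Among other Nrf2 targets and the suppliers of NADPH, 6 of 18 were called between the sexes in each strain. Of all genes, 6.34% were in B6 and 6.90% in C3. In B6, 2 were higher and 4 lower in females, against 3.23% and 3.12% of all genes. In C3 it was 3 and 3, against 4.11% and 2.79%. Between the strains, 5 of 18 were called in females, 2 higher and 3 lower in C3, against 9.40% of all genes. In males it was 3 of 18, all lower in C3, against 9.64%. Abcc4, an efflux transporter, was higher in females, as Nqo1 was, with log2 fold changes of 0.72 in B6 (adjusted p = 4.2e-04) and 1.29 in C3 (adjusted p = 2.1e-06), and lower in C3 males than in B6 males by 0.81 (-0.81, adjusted p = 2.5e-04). Aox1, an aldehyde oxidase, was 59.7 ± 1.68 CPM in C3 females against 147.2 ± 12.4 in C3 males (-1.31, adjusted p = 6.9e-11) and against 122.5 ± 11.4 in B6 females (-1.03, adjusted p = 8.6e-10). Me1, the cytosolic malic enzyme that supplies NADPH, was lower in B6 females than in B6 males (-1.10, SE 0.20, adjusted p = 4.9e-04). Ptgr1, a prostaglandin reductase, was higher in C3 females than in B6 females (0.82, adjusted p = 5.1e-04).

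The metal and heme list held 2 metallothioneins, Mt1 and Mt2, that were called higher in females of both strains. They were the only calls in that direction among its 10 genes, where 3.23% of all genes were in B6 and 4.11% in C3. Lower in females were 1 of 10 in B6 and 0 of 10 in C3, against 3.12% and 2.79%. Mt2, a metallothionein, was 14.9 ± 20.3 CPM in B6 females and 26.4 ± 16.4 in C3 females, against 0.372 and 1.28 in the males (adjusted p = 1.5e-04 and 1.1e-04). Mt1 was 6.29-fold higher in C3 males than in B6 males (log2 fold change 2.65, SE 0.47, adjusted p = 2.2e-04). Blvrb, a biliverdin reductase, was lower in B6 females than in B6 males (-0.51, adjusted p = 3.5e-07) and in C3 males than in B6 males (-0.79, adjusted p = 6.3e-10). Sod3, extracellular superoxide dismutase, was higher in C3 than in B6 in females (0.71, adjusted p = 9.0e-04) and in males (0.83, adjusted p = 3.0e-04).

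In the thiol lists, 0 to 3 of 14 genes were called per list and sex or strain comparison, where 6.34% to 9.64% of all genes were. The count of 3 was for glutathione genes between C3 and B6 males, 2 higher and 1 lower in C3, against 9.64% of all genes. Of the glutathione genes, Glrx5 was lower in B6 females than in males (-0.62, edgeR adjusted p = 1.2e-06), with -0.26 in C3 (adjusted p = 0.00587). Ggct was higher in C3 females than in males (0.54, adjusted p = 2.0e-04), with 0.33 in B6 (adjusted p = 0.00819). Glrx2 was lower in C3 males than in B6 males (-0.55, adjusted p = 1.4e-05), with -0.42 in females (adjusted p = 2.1e-04). Glrx, cytosolic glutaredoxin, was 17.7 ± 1.70 CPM in B6 females and 28.6 ± 1.71 in C3 females (0.70, adjusted p = 5.6e-08), and 17.8 ± 1.5 in B6 males against 37.7 ± 3.62 in C3 males (1.12, adjusted p = 9.3e-11). Of 14 thioredoxin and peroxiredoxin genes, Prdx5 was lower in B6 females than in males (-0.51, edgeR adjusted p = 4.3e-07). In C3 the sex difference of Prdx5 was -0.49 (adjusted p = 1.0e-06), short of the fold limit only. Prdx4 was higher in C3 males than in B6 males (0.53, adjusted p = 7.4e-04). Of 13 selenoprotein genes, Dio1, a deiodinase, was the single call, at 8.24 ± 3.34 CPM in C3 males against 48.0 ± 35.3 in C3 females (5.67-fold higher in females, adjusted p = 3.2e-04) and 156.5 ± 22.2 in B6 males (-4.31, adjusted p = 9.1e-07).

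**Figure D4:**
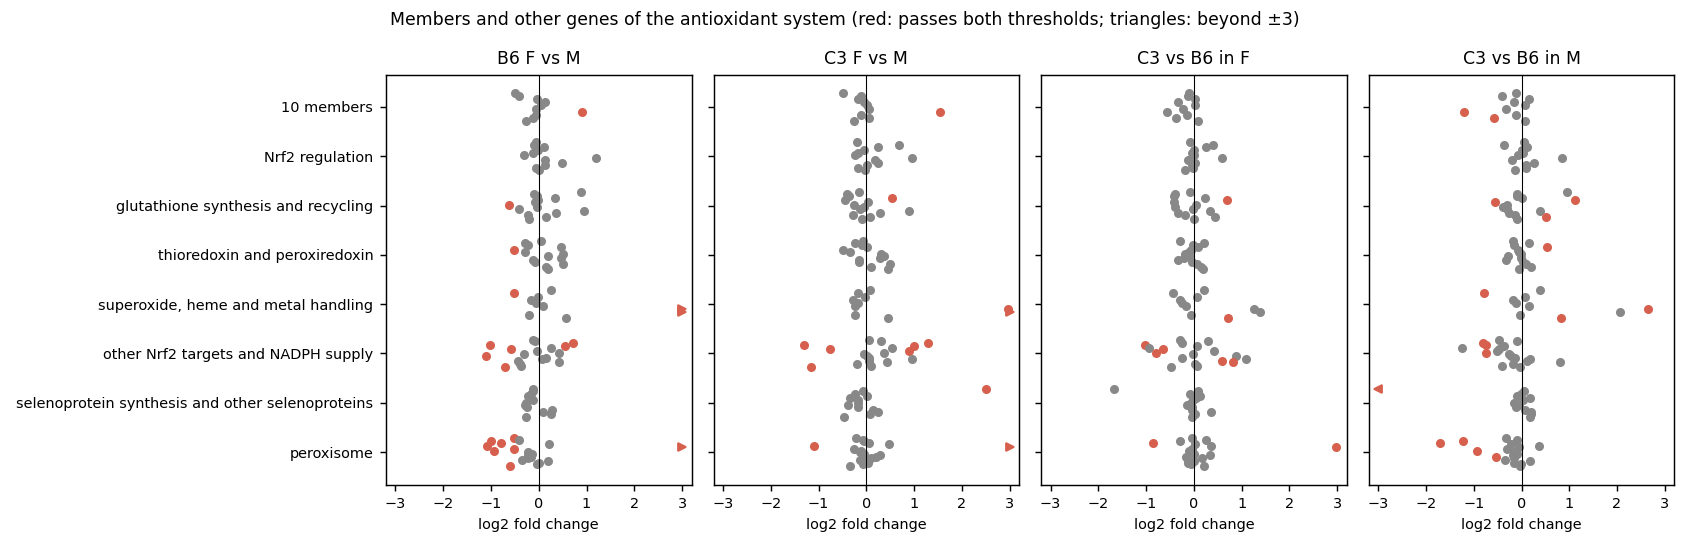
Log2 fold changes of the 10 members and of the tested genes of 7 further lists in the 4 comparisons. Each point is a gene, red points pass both thresholds, and triangles at the edge lie beyond ±3. In B6, 7 of the 8 called peroxisome genes are lower in females, and the Nrf2 regulation list holds no call.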

How the data were processed

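Liver RNA of 20 mice was analysed, 5 per sex and strain, with groups and pools taken from the labels. Per gene, raw read-pair counts were deposited, made by the authors by trimming with cutadapt 1.9.1, aligning strand-specific, ribosomal RNA-depleted libraries to mm9 with STAR 2.5.1b and counting on RefSeq genes with featureCounts (Subread 1.5.0-p1), and TPM values that the authors made from them, with a gene length whose definition is not given in the sources used here. The symbol and identifier headers are exchanged in both tables, which were read by content.

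Counts of all 20 libraries were fitted in R 4.3.3 with edgeR 4.0.16 (filterByExpr, TMM, quasi-likelihood test, pool and group in the model), with Benjamini-Hochberg adjustment over 13704 loci. SEs were derived from the F statistic. CPM gives means with the SD of 5 mice. Depth was 27370921 to 46835745 counts. The procedure was tested on simulated counts that held no pool effect, so that test cannot show how the calls depend on pool. DESeq2 1.42.0, limma 3.58.1 on log2(TPM + 1) and log2(TPM + 0.1), other size factors, other filters and models, and leaving out each library were alternatives. Motifs and transcript copies (at least 95% identity over 125 bases, blastn 2.17.0) were searched in mm9, and promoters are from RefSeq. The form TGAGNNNGC and the 1000-base window were added after seeing the data.

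The members, lists and tests were chosen with earlier results of these data known. Besides the members, the text names the called gene with the largest change in each direction of each list and comparison, the 2 genes closest in pattern to a called member, and markers. A gene selected by this rule is not reported here. Alas2, Slc4a1 and the second comparisons given for a named gene, where they fall outside this rule, were chosen after their values were seen. The markers Tf and Ahsp were not found under these symbols.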

Additional observations from a re-analysis of the deposited data

Results flagged for a closer look

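In the 40 groups of 5 livers formed by 10 genes and 4 groups, 2 livers stood apart from the other 4 by more than Dixon's 95% limit, which chance exceeds in about 1 of 20 groups. Gclm in C3 male replicate 5 was 170.7 CPM, where the other 4 livers ran from 138.8 to 146.0. Sod1 in B6 male replicate 1 was 674.1 CPM, where the other 4 ran from 577.2 to 593.6. Both livers were sequenced in pool 2, and the Sod1 liver was alone there in its group. Pool 2 stood 0.21 above pool 1 on the log2 scale for Sod1 (edgeR adjusted p for the pool term 0.0012) and 0.05 above it for Gclm (0.0119). The rate of 1 in 20 takes no account of pool.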

How the results depend on the processing

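Of 1090 log2 fold changes of members under alternatives, 68 changed sign, none of them past the thresholds and none larger than 0.10. The number of members called was most affected by the pool term. Without it, 0 were called in B6 females against males and 0 between the strains in males, where Nqo1 gave -1.30 (adjusted p = 0.00161) and Srxn1 -0.60 (adjusted p = 0.00114). In B6, 0 were called with only the 2 groups compared in the fit (Nqo1 0.91, adjusted p = 0.00114). In C3, 2 were called by DESeq2, 2 with relative log expression factors and 2 with only the 2 groups compared, since Cat reached -0.50, -0.50 and -0.51. Between the strains in females 1 was called by DESeq2, Nqo1 at -0.58 (adjusted p = 3.9e-04). At an adjusted p under 0.05, 4, 3, 4 and 4 members passed. Leaving out single libraries gave 1 to 2 members in B6, 1 to 2 in C3, 0 to 1 and 2 to 2 between the strains in females and males, and 0 to 0 in the interaction. Of the other pathway genes, 8, 4 and 5 were called without the pool term in B6 females against males and between the strains in females and males, 4 with only the 2 groups compared between the strains in females, and 3 by DESeq2 in the interaction. At an adjusted p under 0.05 they numbered 56, 52, 39, 45 and 13 of 100, against 34.6%, 40.0%, 32.9%, 34.5% and 2.96% of all genes. Without single libraries they ranged from 15 to 18, 9 to 12, 6 to 12, 10 to 16 and 0 to 2, the last without B6 male replicate 3. The cause of these shifts was not tested.

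With the replicate number as a block, 1, 1, 0, 2 and 0 members were called. The numbers share only a number: with pool removed, correlations of same-numbered livers ran from -0.20 to 0.32. With TPM + 0.1 in limma, the median log2 fold change of all genes, females against males, was 0.11 in B6 and 0.12 in C3, and the share of calls higher in females was 71.6% in B6 (50.9% by edgeR) and 77.4% in C3 (59.6% by edgeR), and 64.3% and 70.0% with upper-quartile factors. Reads amplified by PCR carry no molecular identifiers, so depth, 58 counts at the lowest for Nqo1, limits counting error only.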
